A study of Mus musculus with 2 samples.

Results

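Chga, tdTomato and YFP are the 3 transcripts of the lineage tracing system in this mouse, and all 3 were among the 31055 genes of the count table. They were taken by name and described across the 2335 cells that the authors kept of 11248 barcodes. The cells were single epithelial cells from small intestinal crypts of 1 mouse labelled ChgaCreER-tdTomato::Rosa26LSL-eYFP, given tamoxifen once a day on 5 days at 1 mg each. Cells of an eYFP+ sort and of a bulk epithelial sort carried hashtag antibodies and were combined in 1 gene expression library, read by a droplet 3′ kit, with 1 hashtag library beside it. By the labels, every cell carries the same alleles and the same treatment, and cells without tamoxifen or without Cre were not analysed here. The age, sex and strain of the mouse, how tdTomato is joined to Chga, and which of the 4 hashtags marked which sort are not given in the sources used here.

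Chga encodes chromogranin A, an acidic protein that is packed with hormones and amines into the dense-core granules of enteroendocrine cells, and is most abundant in the serotonin-making enterochromaffin cells. CreER is a recombinase that tamoxifen lets into the nucleus, where it removes a stop cassette (LSL) in front of the Rosa26 reporter. From then on eYFP is transcribed from the Rosa26 locus, which is active in most cell types, in that cell and in its descendants, whereas tdTomato at Chga reports the driver gene itself. The 3 transcripts thus stand for a driver, a reporter of its present activity and a permanent mark of its past activity.

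Chga (ENSMUSG00000021194) is a protein-coding gene at chr12:102554941-102565027 in GRCm38.p6, by RefSeq. The region from 250 bases before its annotated start to 50 bases after it is shown because Chga is the driver gene of the CreER-tdTomato allele. It is given 5′ to 3′ on the + strand at chr12:102554691-102554990, with capitals marking a TGACGT, the core of the cAMP response element, and a TATAAA, the core of the TATA box.
Chga promoter: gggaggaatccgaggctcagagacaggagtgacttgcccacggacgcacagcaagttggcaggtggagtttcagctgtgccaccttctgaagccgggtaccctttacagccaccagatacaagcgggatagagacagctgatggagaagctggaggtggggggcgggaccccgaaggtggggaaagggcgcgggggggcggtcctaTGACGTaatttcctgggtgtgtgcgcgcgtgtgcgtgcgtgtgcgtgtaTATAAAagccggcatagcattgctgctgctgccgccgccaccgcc
TGACGT begins 44 bases before the annotated start, and on either strand it is in 7.51% of the 32851 mouse promoter windows of this length. TATAAA begins at base 5 after the start and is in 13.6% of the windows. CCGCCC, the core of the GC box, occurs 2 times on the opposite strand of the window and is in 35.7% of all windows. These matches describe the letters of the window only. The Rosa26 reporter lies at Gt(ROSA)26Sor (ENSMUSG00000086429), a long non-coding RNA gene at chr6:113067428-113077244 in the same build.

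Kept cells held 1002 to 129719 unique transcript counts (UMIs), with a median of 19078 and 51238250 in all. A level in CPM is the number of a gene's UMIs in 1000000 UMIs of a group of cells added together, with its exact 95% Poisson interval. Shares of cells carry exact 95% Clopper-Pearson intervals, and both kinds of interval cover counting error only. There is 1 library and no replicate, so no test was made and a difference is described by whether intervals overlap. Although the labels name 1 mouse, 252 cells held Y-linked UMIs with at most 2 Xist UMIs, whereas 1744 had no Y-linked UMI and 3 or more of Xist. Of the 252 Y-linked cells, 250 had more counts of hashtags 1 and 2 than of hashtags 3 and 4, and the results by Chga, Tph1, hormones, Neurog3 and sex-linked UMIs are also given within the cells of hashtags 1 and 2. Clusters were made without the 3 members. Named by list markers, 2 enterochromaffin-like clusters and 1 enteroendocrine-like cluster, together 451 cells, are called the endocrine clusters. A further 133 cells fell into lymphocyte-like clusters. Both enterochromaffin-like clusters had all 8 markers of their list, Tph1, Ddc and Tac1 among them.

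The 133 lymphocyte-like cells, which should lack the driver, give a level to set beside the others. At a median of 2684 UMIs they had Chga in 24.1% of cells (90.9 CPM, 64.6 to 124), tdTomato in 0.752% (2.33 CPM, 0.0590 to 13.0) and YFP in 3.76% (11.7 CPM, 3.78 to 27.2). After each cell was thinned to 2000 UMIs the shares were 17.9%, 0.943% and 2.83%. The cluster named from B cell genes also had the myeloid genes Lyz2, Il1b and S100a9 among its leading genes. By more counts, 86 of its 91 cells and 37 of the 42 T cell-like cells lay on hashtags 3 and 4. The lymphocyte-like levels are thus mostly those of 1 hashtag pair.

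Each of the 3 transcripts was concentrated in few cells. Chga's 58221 UMIs were found in 1114 of 2335 cells, with 1 UMI in 516 of them and 659 in the highest. The 250 cells with at least 100 UMIs held 85.3% of all Chga UMIs, and 108 cells held 50%. The same share lay in 109 cells for tdTomato and in 98 for YFP. The 2469 tdTomato UMIs were found in 729 cells, with 1 UMI in 350 of them and 26 in the highest. The 3407 YFP UMIs were found in 616 cells, with 1 UMI in 177 of them and 38 in the highest. YFP thus had fewer cells with a single UMI than tdTomato, and more with 3 or more, 349 against 265.

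The first comparison asked how the reporters follow the present level of the driver. Cells were grouped by Chga UMIs as 0 (1221 cells), 1 to 4 (691), 5 to 19 (57), 20 to 99 (116) and at least 100 (250). From 0 to at least 100 Chga UMIs, tdTomato was at 10.2 CPM (9.01 to 11.6), 12.4 (10.9 to 14.1), 44.8 (33.4 to 58.7), 224 (199 to 250.4) and 316 (300.3 to 331). The first 2 groups overlapped and each later group lay above the one before it. In the same order YFP was at 46.9 CPM (44.2 to 49.7), 47.9 (44.8 to 51.1), 72.3 (57.7 to 89.5), 149 (129 to 171) and 206 (194 to 218.5). YFP thus stood at nearly the same level in the 2 lowest groups, and above them in the remaining 3, in steps smaller than those of tdTomato.

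**Figure D1:**
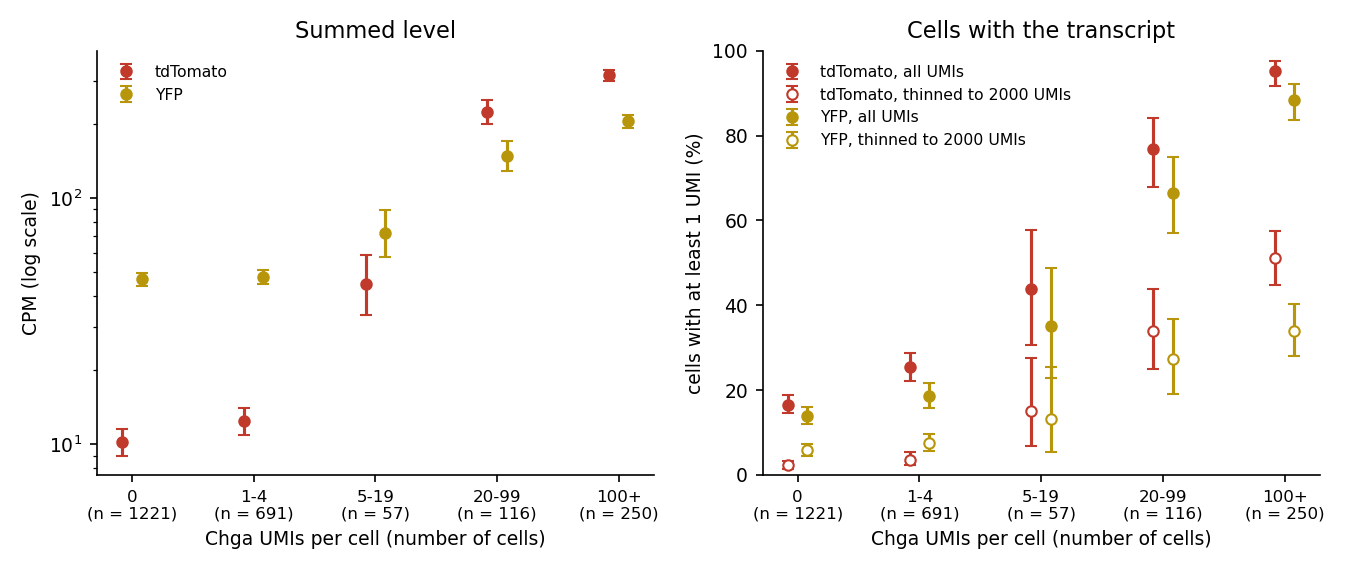
Summed levels of tdTomato and YFP (left, CPM on a log axis) and the percentage of cells with at least 1 UMI of each (right) in 5 groups of cells by Chga UMIs, with exact 95% intervals; open points are cells thinned to 2000 UMIs. tdTomato climbs from the group with 5 to 19 Chga UMIs, and YFP starts from 46.9 CPM in cells with 0 Chga UMIs.

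Cells with at least 20 Chga UMIs had tdTomato at 296 CPM (283 to 310.0), against 10.2 CPM in cells with 0, a log2 ratio of 3.92 (3.76 to 4.07) with 10 CPM added to both sides. YFP was at 194 CPM (183 to 205) in cells with at least 20 Chga UMIs, against 46.9 in cells with 0, a log2 ratio of 1.84 (1.70 to 1.99). Both were at least 2-fold higher with intervals apart, as were 8.41% of the 11726 genes with at least 50 UMIs (1.33% were lower), where tdTomato ranked 48th and YFP 332nd by log2 ratio. The median log2 ratio of all these genes was 0.09. For tdTomato the ratio was 4.73 with a pseudocount of 1 CPM. Within the cells of hashtags 3 and 4, of which 9 had at least 20 Chga UMIs, it was 2.84. For YFP the ratio was 0.69 within the cells of hashtags 1 and 2, which are described below.

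The shares of cells with a reporter UMI changed in the same order. tdTomato was found in 16.5%, 25.3%, 43.9%, 76.7% and 95.2% of cells from 0 to at least 100 Chga UMIs. The median depths of these groups were 18480, 24352, 11949, 8813 and 14637 UMIs. Thinned to 2000 UMIs, the tdTomato shares were 2.29%, 3.60%, 15.1%, 34% and 51.2%. The lymphocyte-like share at this depth, 0.943%, was 1 of 106 cells. YFP was found in 13.8%, 18.7%, 35.1%, 66.4% and 88.4% of cells, and after thinning in 5.81%, 7.5%, 13.2%, 27.4% and 34%. Of cells with 0 Chga UMIs 7.86% had 3 or more YFP UMIs, and of those with at least 100 it was 54.4%.

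Depth and Chga were not independent, and the order was also read within ranges of depth. Among cells with 15000 to under 30000 UMIs, tdTomato was at 10.6 CPM in 500 cells with 0 Chga UMIs and at 377 (346 to 409.5) in 67 cells with at least 100, and YFP at 38.3 (34.7 to 42.1) and 212 (189 to 236). Among cells with 30000 UMIs or more it was at 8.95 CPM in 240 cells with 0 Chga UMIs and at 196 (179 to 215) in 53 cells with at least 100. YFP in the same deepest cells was at 53.1 CPM (48.8 to 57.8) with 0 Chga UMIs and at 173 (156 to 190.2) with at least 100. Each reporter was thus higher with Chga within both ranges, with both hashtag pairs pooled. The rest of the 250 cells with at least 100 Chga UMIs lay in shallower ranges, which are not given here.

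At the edges of the groups the numbers of cells were small. At 19 Chga UMIs there were 2 cells, 1 of which had tdTomato, and at 20 there was 1 cell, which had tdTomato and YFP. The 27 cells with at least 20 Chga UMIs but under 5 UMIs of Tph1 had a median of 3068 UMIs, with Chga at 8410 CPM (7988 to 8849). Their tdTomato was at 164 CPM (110 to 236) and their YFP at 153 (101 to 222). The 339 cells that passed both thresholds had a median of 12840 UMIs, with Chga at 8730, tdTomato at 300.1 (287 to 314) and YFP at 195 (184 to 206).

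Tph1 (ENSMUSG00000040046), which encodes the enzyme that limits serotonin synthesis in gut epithelium, marked the cells with nearly all of the driver. The 347 cells with at least 5 Tph1 UMIs had Chga at 8636 CPM (8564 to 8708), against 64.0 (61.7 to 66.4) in the other 1988 cells. With 10 CPM added to both sides, this log2 ratio of 6.87 was the highest of 12353 genes, with Tph1 itself at 6.60. Tph1, which chose the cells, was at 1646 CPM against 7.12, where the added 10 CPM lowers the ratio more than for Chga. The order of these 2 genes thus depends on the pseudocount. tdTomato was at 298 CPM (285 to 312) in cells with at least 5 Tph1 UMIs and at 12.5 (11.5 to 13.6) in the others, a log2 ratio of 3.78. YFP was at 194 CPM (183 to 205) in cells with at least 5 Tph1 UMIs and at 48.3 (46.3 to 50.4) in the others, a log2 ratio of 1.81. All 3 were at least 2-fold higher with intervals apart, as were 7.78% of the genes, while 1.08% were lower. Within hashtags 1 and 2 the YFP ratio was 0.80, from 227 CPM (214 to 241) in 284 cells with at least 5 Tph1 UMIs and 126 (121 to 132) in 703 others, and the tdTomato ratio was 3.93.

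Of the cells with at least 5 Tph1 UMIs, 100% had Chga, 91.4% had tdTomato and 83.3% had YFP, beside 38.6%, 20.7% and 16.5% of the others. Thinned to 2000 UMIs, the shares were 99.7%, 47.4% and 32.6% in the Tph1 cells, beside 8.83%, 3.16% and 6.69% in the others. The 14 cells with exactly 5 Tph1 UMIs held 38 tdTomato and 22 YFP UMIs, and the 10 cells with 4 held 4 and 8.

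Peptide hormones (Gip, Gcg, Cck, Ghrl, Sst, Nts, Pyy and Insl5) made up at least 1% of UMIs in 85 cells, in which YFP stood furthest above the remaining cells and Chga least. YFP was at 208 CPM (186 to 231) in these cells, against 61.8 (59.7 to 64.1) in the other 2250, a log2 ratio of 1.60 (1.40 to 1.79). tdTomato was at 124 CPM (108 to 142) in the hormone cells and at 45.7 (43.8 to 47.6) in the others, a log2 ratio of 1.27 (1.03 to 1.5). Chga was at 1906 CPM (1840 to 1974) in the hormone cells and at 1111 (1102 to 1120.0) in the others, a log2 ratio of 0.77. YFP and tdTomato were at least 2-fold higher with intervals apart, as were 4.75% of genes (1.08% were lower), and Chga was not. With every cell weighted equally the Chga ratio turned to -0.24, and without the 5 cells of each side with most Chga UMIs it was 0.14. Within hashtags 1 and 2 the ratios were 0.68 for YFP, 0.68 for tdTomato and -0.026 for Chga. There YFP was at 236 CPM (210.4 to 263) in 73 hormone cells and 143 (138 to 149) in 914 others, and Chga at 2305 (2224 to 2388) in hormone cells and 2347 (2326 to 2369) in others.

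Few cells carried the Chga of the hormone group. Of the 85 cells, 15 also had at least 5 Tph1 UMIs, and these held Chga at 7270 CPM (7006 to 7542), tdTomato at 374 (316 to 440.0) and YFP at 321 (267 to 382). The other 70 held Chga at 222 CPM (197 to 249.9), tdTomato at 45.6 (34.5 to 59.0) and YFP at 172 (149.7 to 196). The 332 cells with Tph1 alone held Chga at 8725 CPM (8650.0 to 8800.0), tdTomato at 293 (279.5 to 307) and YFP at 185.5 (175 to 197). Between hormone cells without Tph1 and cells with Tph1 alone, Chga and tdTomato were lower with intervals apart, and the intervals of YFP overlapped.

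YFP was also common in hormone cells that had no Chga UMI. Of 20 such cells, 85% had YFP, at 151 CPM (111 to 199.6), while tdTomato was at 18.8 CPM (6.90 to 41.0). The 31 hormone cells with 1 to 4 Chga UMIs had YFP at 169.5 CPM (138 to 206) and tdTomato at 39.9 (25.6 to 59.3). The 1201 remaining cells with 0 Chga UMIs had YFP at 45.5 CPM (42.8 to 48.3), below the hormone cells. Within hashtags 1 and 2, where 19 of the 20 hormone cells lay, the intervals overlapped: YFP was at 145 CPM (105 to 196) in these 19 and at 137 (129 to 145) in 378 other cells with 0 Chga UMIs. With 1 to 4 Chga UMIs on these hashtags, YFP was at 212 CPM (172 to 259) in 24 hormone cells and 110.2 (102.5 to 118) in 226 others, with intervals apart.

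By single hormone, the cells in which Gip made up at least 1% of UMIs (34 cells) had YFP at 217 CPM, Gcg cells (14) at 233, Cck cells (44) at 219 and Ghrl cells (18) at 228. These groups share cells, and their YFP intervals overlapped throughout, from 176 to 301 CPM at the widest. Their tdTomato was at 120 CPM (93.9 to 150.1) in Gip cells, 93.9 (59.5 to 141) in Gcg cells, 132 (109 to 158) in Cck cells and 149 (112 to 195) in Ghrl cells. The 5 Sst cells had Chga at 125 CPM (60 to 230.2) and 23 YFP UMIs, of which 19 lay in 1 cell.

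UMIs of a reporter per 100 Chga UMIs compare groups of cells, not the levels of 2 genes. tdTomato was at 20.5 per 100 Chga UMIs (15.1 to 27.4) in hormone cells without Tph1, at 5.15 (4.33 to 6.08) in cells with both, and at 3.36 (3.20 to 3.52) in cells with Tph1 alone. Within the cells with more counts of hashtags 1 and 2, these values were 17.9, 5.15 and 3.35. YFP per 100 Chga UMIs was 77.3 (64.4 to 92.7) in hormone cells without Tph1, 4.41 (3.66 to 5.28) in cells with both and 2.13 (2.0 to 2.26) in cells with Tph1 alone. Among these 3 groups both ratios were highest where Chga was lowest, and the 3 intervals did not overlap. Chga is the divisor, so this order is partly arithmetic. It did not extend to the 22 Neurog3 cells with neither Tph1 nor hormones, which had Chga at 105 CPM. Their ratios were 9.86 (3.83 to 21.4) for tdTomato and 29.6 (17.3 to 48.7) for YFP. Cells in none of these groups had Chga at 58.8 CPM, with ratios of 19.6 and 76.5. YFP per 100 tdTomato UMIs was 377 (281 to 514) in hormone cells without Tph1 and 63.3 (58.7 to 68.3) in cells with Tph1 alone.

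**Figure D2:**
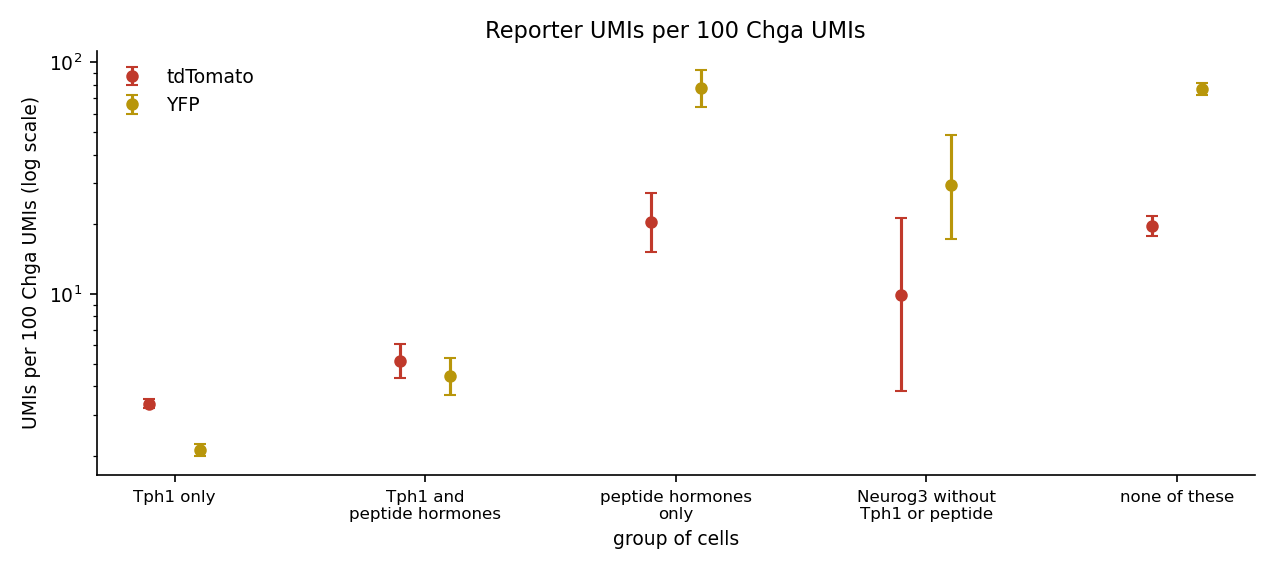
UMIs of tdTomato and YFP per 100 Chga UMIs (log axis) in cells grouped by Tph1, peptide hormones and Neurog3, with exact 95% intervals. Cells with Tph1 alone sit lowest, at 3.36 for tdTomato and 2.13 for YFP, and hormone cells without Tph1 at 20.5 and 77.3.

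Neurog3 (ENSMUSG00000044312) encodes the transcription factor that commits crypt cells to the endocrine lineage for a short time. The 47 cells with at least 3 Neurog3 UMIs did not differ by 2-fold from the other 2288 in any of the 3 members, while 2.28% of genes were higher and 0.534% lower. Chga was at 1281 CPM (1215 to 1349) in the Neurog3 cells and 1133 (1124 to 1142) in the others. tdTomato was at 62.7 CPM (48.9 to 79.3) in the Neurog3 cells and 47.9 (46.0 to 49.8) in the others. YFP was at 85.2 CPM (68.9 to 104) in the Neurog3 cells and 66.1 (63.9 to 68.4) in the others, a log2 ratio of 0.32 that turned to -0.056 at a threshold of 5 Neurog3 UMIs. Within hashtags 1 and 2 it was -0.31, from 119 CPM (94.8 to 148) in 27 Neurog3 cells and 150.1 (145 to 155.5) in 960 others, and the ratios of Chga and tdTomato were -0.56 and 0.0043. Without the 5 cells of each side with most UMIs of the member, the log2 ratios of Chga, tdTomato and YFP were -0.53, -0.30 and -0.46.

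Within the Neurog3 cells the reporters again differed by Chga. The 6 cells with 0 Chga UMIs had 0 tdTomato UMIs, which allows up to 31.4 CPM, and YFP at 42.5 CPM (13.8 to 99.3). The 13 cells with 1 to 4 had tdTomato at 8.14 CPM and YFP at 76.0, and the 8 cells with 5 to 19 had 36.2 and 18.1. In each of these 2 groups 1 cell held most of the YFP, 19 of 28 UMIs and 4 of 5. The 15 cells with 20 to 99 had tdTomato at 145 CPM (101 to 202) and YFP at 137 (94.4 to 193), and the 5 cells with at least 100 had 196 (123 to 296) and 213.5 (137 to 318). tdTomato in the 15 cells with 20 to 99 was thus above that of the 13 with 1 to 4 (1.68 to 23.8), with intervals apart. YFP between these 2 groups overlapped.

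Chga was present in most Neurog3 cells even where tdTomato and YFP were not. It was found in 87.2% of the 47 cells, tdTomato in 53.2% and YFP in 40.4%, and after thinning in 61.7%, 8.51% and 17.0%. The 22 Neurog3 cells with neither Tph1 nor hormones held Chga at 105 CPM (81.9 to 132), tdTomato at 10.3 (4.16 to 21.3) and YFP at 31.0 (19.2 to 47.4). Their Chga interval overlapped that of the lymphocyte-like cells, 64.6 to 124 CPM, at median depths of 17250 and 2684 UMIs. A Chga UMI was found in 72.7% of these 22 cells and in 24.1% of the lymphocyte-like cells. At depths this unlike, the overlap does not place the 2 groups at the same level.

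Hashtag pairs divided YFP by a larger ratio than Chga UMIs, Tph1, hormones or Neurog3 did. The eYFP+ sort chose cells by the reporter itself, and which hashtags it carried is not given. Comparisons over all cells pool both sorts. The part of the sort in the YFP values, over all cells or by hashtag pair, was not tested. At 3 times the counts of the other pair, 987 cells belonged to hashtags 1 and 2, 411 to hashtags 3 and 4, and 937 to neither. YFP was at 149 CPM in cells of hashtags 1 and 2 and 4.87 in cells of hashtags 3 and 4, a log2 ratio of 3.42 (3.22 to 3.60) that ranked 9th of 11745 genes. The log2 ratio was 3.64 for Chga, ranked 6th, and 1.88 for tdTomato, ranked 74th. All 3 were at least 2-fold higher with intervals apart, as were 2.02% of genes, while 0.562% were lower. With a pseudocount of 1 CPM the YFP ratio was 4.68.

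Within 1 group of Chga UMIs the pairs differed in YFP more than in tdTomato. In cells with 0 Chga UMIs, YFP was at 137 CPM (129 to 145.5) in 397 cells of hashtags 1 and 2 and at 2.63 (1.36 to 4.6) in 249 cells of hashtags 3 and 4. tdTomato in the same cells was at 10.5 CPM (8.34 to 13.0) in hashtags 1 and 2 and at 9.87 (7.20 to 13.2) in hashtags 3 and 4. Cells without a Chga UMI therefore differed between the pairs in YFP, and overlapped in tdTomato.

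Within the cells of hashtags 1 and 2, YFP followed another order over Chga than over all cells. From 0 to at least 100 Chga UMIs it was at 137, 116 (109 to 124), 98.0 (76.2 to 124), 188 (161 to 218) and 236 (221 to 252) CPM. Its share of cells was 33.3%, 38.8%, 46.0%, 69.5% and 89.9%. tdTomato in the same cells was at 10.5, 10.9, 44.0, 276 (243 to 312) and 356 (337 to 375) CPM. YFP was lower with 1 to 19 Chga UMIs than with 0 there, and tdTomato was not.

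**Figure D3:**
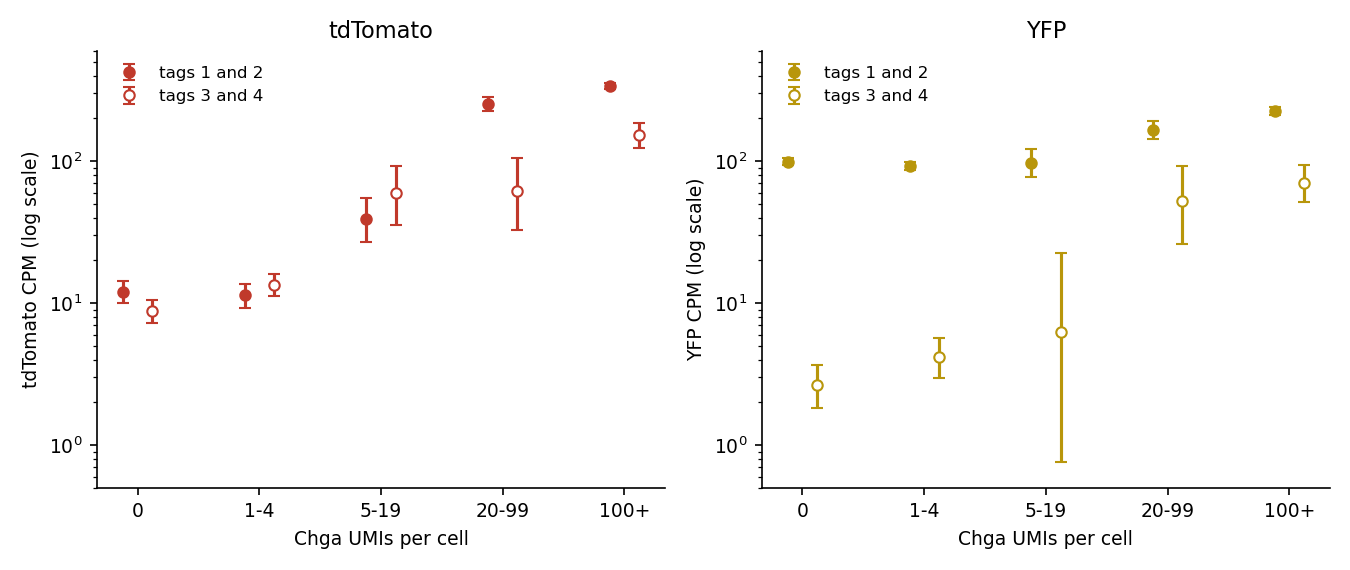
tdTomato (left) and YFP (right) in CPM on log axes by Chga UMIs, for cells with more counts of hashtags 1 and 2 (filled) or of hashtags 3 and 4 (open), with exact 95% intervals. With 0 Chga UMIs the pairs lie at 12 and 8.75 CPM for tdTomato and at 99.3 and 2.64 CPM for YFP.

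Only 9 cells of hashtags 3 and 4 had at least 20 Chga UMIs, so all cells were also given to whichever pair held more counts (1315 and 1020 cells). With at least 100 Chga UMIs, tdTomato was at 338 CPM (322 to 356) in 233 cells of hashtags 1 and 2 and at 153 (124.5 to 187) in 17 cells of hashtags 3 and 4. YFP was at 225 CPM (211 to 239) in the same cells of hashtags 1 and 2 and at 70.4 (51.4 to 94.3) in those of hashtags 3 and 4. Chga itself was at 10396 CPM in these cells of hashtags 1 and 2 and at 4234 in those of hashtags 3 and 4, at median depths of 13956 and 34042 UMIs.

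Over all hashtags the Y-linked and Xist groups differed too. The split is uneven, since a single Y-linked UMI can place a cell but 3 Xist UMIs are needed. The 339 cells in neither group had a median of 3345 UMIs. They held Chga at 4634 CPM (4568 to 4702), tdTomato at 176 (163 to 189) and YFP at 153 (141 to 166), above both groups. Their part in the differences, also within hashtags 1 and 2, was not tested. Y-linked cells had YFP at 121 CPM (112 to 130.0) and Xist cells at 50.8 (48.7 to 53.0), a log2 ratio of 1.10. Chga was at 2231 CPM (2193 to 2270) in Y-linked cells and 653 (645 to 660.5) in Xist cells, and tdTomato at 71.5 (64.8 to 78.8) in Y-linked cells and 32.9 (31.1 to 34.6) in Xist cells. Chga and YFP were at least 2-fold higher with intervals apart, as were 0.875% of 12119 genes, while 0.363% were lower. Within the cells of hashtags 1 and 2 by more counts, YFP was at 121 CPM (112 to 130.4) in 250 Y-linked cells and 108 (103 to 112) in 851 Xist cells, and these intervals overlapped. By the stricter 3-fold rule the order was turned, with YFP at 121 CPM (112 to 130.5) in 248 Y-linked cells and 148 (141 to 155) in 563 Xist cells, a log2 ratio of -0.27. In the cells by more counts Chga was at 2219 CPM (2181 to 2258) in Y-linked cells and 1302 (1285 to 1318) in Xist cells, and tdTomato at 71.6 (64.8 to 78.9) in Y-linked cells and 55.6 (52.3 to 59.1) in Xist cells, with intervals apart.

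The rise with Chga was present in both the Y-linked and the Xist cells. From 0 to at least 100 Chga UMIs, Y-linked cells had tdTomato at 7.46, 9.24, 43.6, 307 and 320 CPM, and Xist cells at 10.5, 13.0, 41.4, 222 and 278. YFP in the same order was at 102, 85.9, 196, 209 and 216 CPM in Y-linked cells and 38.7, 42.6, 65.4, 157 and 161 CPM in Xist cells. The Y-linked group with 5 to 19 Chga UMIs holds 3 cells.

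Clusters made without the members placed all 3 highest in the enterochromaffin-like cluster led by Afp. The 157 cells led by Afp, Reg4 and Trpa1 had Chga at 15386 CPM (15217 to 15556), tdTomato at 492.5 (463 to 524) and YFP at 276 (254 to 299.7). The 190 cells led by Tac1 and Tph1 had Chga at 5640 CPM (5563 to 5719), tdTomato at 195 (181 to 210.4) and YFP at 139 (127 to 151.5). The Afp-led cells were above the Tac1-led cells in all 3, at a median depth of 11354 against 11704 UMIs. In the Tac1-led cluster, 73 of the 173 cells with at least 20 Chga UMIs were among the 140 cells with the highest doublet scores, against 0 of 157 in the Afp-led cluster, and their part in the difference was not tested.

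The 104 enteroendocrine-like cells, led by Cck, Gip and Gcg, had Chga at 1187 CPM (1141 to 1235), tdTomato at 82.6 (70.6 to 95.9) and YFP at 167 (149.9 to 186). Chga was concentrated in 15 of these cells, which held 90.6% of its UMIs. The other 89 had Chga at 134 CPM (117 to 152.5), tdTomato at 32.8 (24.8 to 42.5) and YFP at 135 (118 to 154). The YFP interval of these 89 cells overlapped that of the Tac1-led enterochromaffin cells, and their Chga lay far below it.

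Goblet-like and tuft-like cells, the mucus-secreting and chemosensory cells of the crypt, also showed Chga, through few cells. In 146 goblet-like cells Chga was at 524 CPM, and 16 cells held 95.4% of it. Without them Chga was at 28.0 CPM (22.8 to 34), tdTomato at 17.3 (13.3 to 22.1) and YFP at 40.1 (33.9 to 47.1). In 30 tuft-like cells Chga was at 1341 CPM, and 4 cells held 97.6% of it. Without them Chga was at 36.2 CPM (20.2 to 59.7), tdTomato at 14.5 (5.31 to 31.5) and YFP at 12.1 (3.92 to 28.1). Whether the 20 cells were doublets was not tested beyond their doublet scores, of which 3, all goblet-like, were among the highest 140.

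In the classes that had almost no cell with 20 Chga UMIs, Chga was at 20.8 CPM (17.3 to 24.8) in 215 enterocyte-like cells, 25.2 (21.9 to 29.0) in 436 stem-like cells, 19.8 (17.7 to 22.2) in 513 cycling cells and 22.1 (15.6 to 30.5) in 35 Paneth-like cells. All 4 lay below the 90.9 CPM of the lymphocyte-like cells. Of the cells of the epithelial and unnamed clusters other than endocrine, 37.7% had a Chga UMI at a median of 21476 UMIs. After thinning the share was 6.70%. The lymphocyte-like share was 24.1% before thinning, at a median of 2684 UMIs, and 17.9% after it. At depths this unlike, neither the CPM levels nor the thinned shares are read as less Chga than in lymphocyte-like cells. The part of free RNA in these shares was not tested.

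tdTomato varied among these classes more than Chga did. It was at 17.1 CPM (14.0 to 20.8) in enterocyte-like cells, 12.6 (10.2 to 15.3) in stem-like cells, 7.77 (4.14 to 13.3) in Paneth-like cells and 6.09 (4.94 to 7.43) in cycling cells. The enterocyte-like and stem-like intervals lay above the cycling one, and overlapped each other. The lymphocyte-like cells held 1 tdTomato UMI in all, too few to set a level against these.

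Relative to Chga, tdTomato was higher outside the endocrine clusters. It was at 3.47 per 100 Chga UMIs (3.31 to 3.63) in the 451 cells of the endocrine clusters and at 15.4 (14.1 to 16.8) in all other cells. Of the Chga UMIs outside the endocrine clusters, 72.5% lay in 21 cells with at least 20 Chga UMIs, where tdTomato was at 4.25 (3.50 to 5.12). In the other 1863 cells it was at 44.8 (40.1 to 50), though a limit on Chga itself raises such a ratio. In the lymphocyte-like cells alone it was at 2.56 (0.0633 to 15.2), from 1 tdTomato UMI. By class it was at 82.3 (62.7 to 108) in enterocyte-like, 49.8 (38.9 to 63.4) in stem-like, 35.1 (17.1 to 67.6) in Paneth-like and 30.7 (24.2 to 38.7) in cycling cells.

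Against Chga, 3 other transcripts of enterochromaffin cells differed less, also without those 21 cells. Chgb, the granin next to Chga in function, was at 567 per 100 Chga UMIs (562 to 572) in the endocrine clusters and at 621 (599.8 to 643) in all other cells. Tph1 was at 18.5 (18.1 to 18.9) in the endocrine clusters and at 21.7 (20.1 to 23.4) in all other cells. Tac1, the substance P precursor, was at 35.0 (34.4 to 35.6) in the endocrine clusters and at 46.4 (43.8 to 49.1) in all other cells. In the 1863 cells with under 20 Chga UMIs the values were 626 (587 to 669) for Chgb, 22.1 (19 to 25.5) for Tph1 and 51.1 (45.9 to 56.8) for Tac1. Their intervals overlapped those of all cells outside the endocrine clusters, and the tdTomato interval did not. In the lymphocyte-like cells, with 39 Chga UMIs, Chgb was at 449 (316 to 652), Tph1 at 17.95 (6.77 to 40.6) and Tac1 at 51.3 (28.3 to 90.1). The limit on Chga applies to each of these ratios in the 1863 cells, and the part of free RNA in them was not tested.

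**Figure D4:**
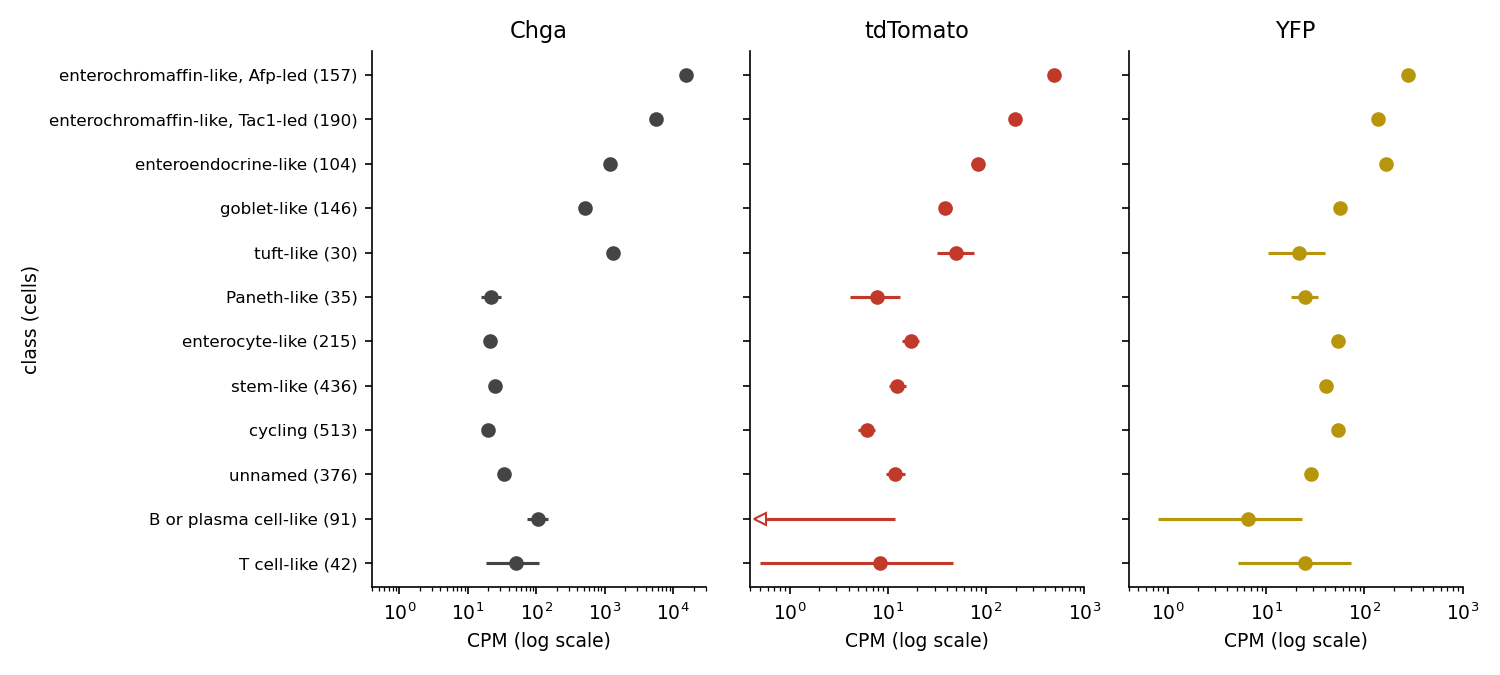
Levels of Chga, tdTomato and YFP (CPM on log axes, a different range for Chga) in 12 classes of cells, with the number of cells in brackets and exact 95% intervals as lines; the open arrow stands for 0 UMIs and its line ends at the upper bound of 11.9 CPM. Chga is led by the 2 enterochromaffin-like clusters, and YFP is above 20 CPM in every epithelial class.

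In the non-endocrine classes given here YFP lay on hashtags 1 and 2. In cycling cells it was at 144 CPM (134 to 154) in hashtags 1 and 2 and at 2.01 (0.808 to 4.14) in hashtags 3 and 4. In stem-like cells it was at 133 CPM (119 to 149) and 2.60 (0.845 to 6.07) in the same order, and in enterocyte-like cells at 192.5 (172 to 215) and 6.78 (2.93 to 13.4). Paneth-like cells had 46.1 CPM (33.2 to 62.3) in 22 cells of hashtags 1 and 2 and 0 UMIs in 7 cells of hashtags 3 and 4, which allows up to 8.02 CPM. tdTomato did not follow, at 5.67 CPM (3.88 to 8.0) in cycling cells of hashtags 1 and 2 and at 9.19 (6.29 to 13.0) in those of hashtags 3 and 4.

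In total 349 cells held at least 3 YFP UMIs, and the kinds of cell among them were mixed. The Afp-led enterochromaffin-like cluster gave 89 of them (25.5%), the Tac1-led cluster 55, cycling cells 52, enteroendocrine-like cells 49, stem-like cells 38, goblet-like cells 21 and enterocyte-like cells 18. Unnamed clusters gave 17, Paneth-like cells 9 and tuft-like cells 1. Of the 349, 172 had under 5 Chga UMIs and 209 had at least 1 tdTomato UMI. In these cells, which were chosen by their YFP, the median YFP per 10000 UMIs was 4.37 with 0 Chga UMIs (96 cells), 4.03 with 1 to 4 (76), 4.04 with 5 to 19 (12), 3.45 with 20 to 99 (29) and 3.20 with at least 100 (136). The requirement of 3 UMIs sets a floor on these values, so nothing is read from their order.

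The host gene of the reporter was read over the same groups of Chga UMIs. Gt(ROSA)26Sor was at 16.0 CPM (14.5 to 17.7), 16.9 (15.1 to 18.8), 16.4 (9.85 to 25.6), 15.6 (9.63 to 23.8) and 14.4 (11.3 to 18) from 0 to at least 100 Chga UMIs. All 5 intervals overlapped. The groups with 5 to 19 and 20 to 99 Chga UMIs held 19 and 21 UMIs of this gene, so the overlap does not show equal levels.

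Cells with and without YFP were then compared within a class, among cells with more counts of hashtags 1 and 2. In stem-like and cycling cells, tdTomato was at 8.06 CPM (4.92 to 12.5) in 89 cells with at least 3 YFP UMIs and 8.31 (6.30 to 10.8) in 300 cells with 0. Chga in the same cells was at 16.1 CPM (11.5 to 22.0) with YFP and 30.9 (26.9 to 35.4) without. Their median depths were 27434 UMIs with YFP and 19371 without, and the part of depth was not tested. In the enterochromaffin-like clusters, tdTomato was at 349 CPM (327 to 371) in 139 cells with YFP and 274 (233 to 319.5) in 61 cells without, while Chga was at 9868 CPM with YFP and 9859 without. The median depth there was 14832 UMIs in cells with at least 3 YFP UMIs and 6671 in cells with 0, and its part in the difference was not tested. In the enteroendocrine-like cluster, Chga was at 2182 CPM (2093 to 2274) in 47 cells with YFP and 291 (243 to 346) in 27 without. tdTomato there was at 128 CPM (107 to 151.5) with YFP and 31.4 (17.2 to 52.6) without. The highest cell held 411 of 2255 Chga UMIs with YFP and 74 of 130 without. The median Chga per 10000 UMIs was 2.39 with YFP and 0.72 without, a smaller difference than that of the sums. Median depths were 16377 and 11434 UMIs, and the part of depth was not tested.

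The last comparison asked whether the 3 transcripts were found in the same cells once depth was made equal. After thinning to 2000 UMIs, which left out 123 shallower cells, 52 of 2212 cells held all 3, 1548 held none, 121 held Chga with tdTomato only, 77 Chga with YFP only and 1 tdTomato with YFP only. Without thinning, 328 of 2335 cells held all 3 and 881 held none. tdTomato was found in 34.1% of cells with Chga (29.9 to 38.4%) and 2.88% of cells without (2.14 to 3.78%). YFP was found in 25.4% of cells with Chga (21.7 to 29.4%) and 6.34% of cells without (5.23 to 7.60%). Without thinning these were 47.3% against 16.5% for tdTomato and 40.1% against 13.8% for YFP.

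YFP was found in 23.9% of thinned cells with tdTomato (18.4 to 30%) and 9.25% of those without (8.01 to 10.6%), a difference of 14.6 points. Within the endocrine clusters it was found in 29.3% of cells with tdTomato (22.7 to 36.7%) and 29.6% of those without (24.1 to 35.6%), a difference of -0.31 points. Outside them it was found in 4.17% of 48 cells with tdTomato (0.509 to 14.3%) and 6.19% of 1730 without (5.10 to 7.43%). Within the endocrine clusters and outside them, the thinned YFP shares with and without tdTomato thus overlapped. Each of these sets pools several classes, and no single class was compared. Thinning leaves few reporter UMIs, so the overlap does not show that the reporters are independent within a class.

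The shares differed more without thinning. In the endocrine clusters YFP was then found in 81.1% of 350 cells with tdTomato (76.6 to 85.1%) and 55.4% of 101 cells without (45.2 to 65.3%). The median depths were 12538 and 9998 UMIs. With at least 100 Chga UMIs, the shares after thinning were 30.5% with tdTomato (22.7 to 39.2%) and 37.7% without (29.1 to 46.9%). Over all cells of hashtags 1 and 2 they were 28.3% with tdTomato (21.8 to 35.7%) and 21.2% without (18.4 to 24.3%).

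**Figure D5:**
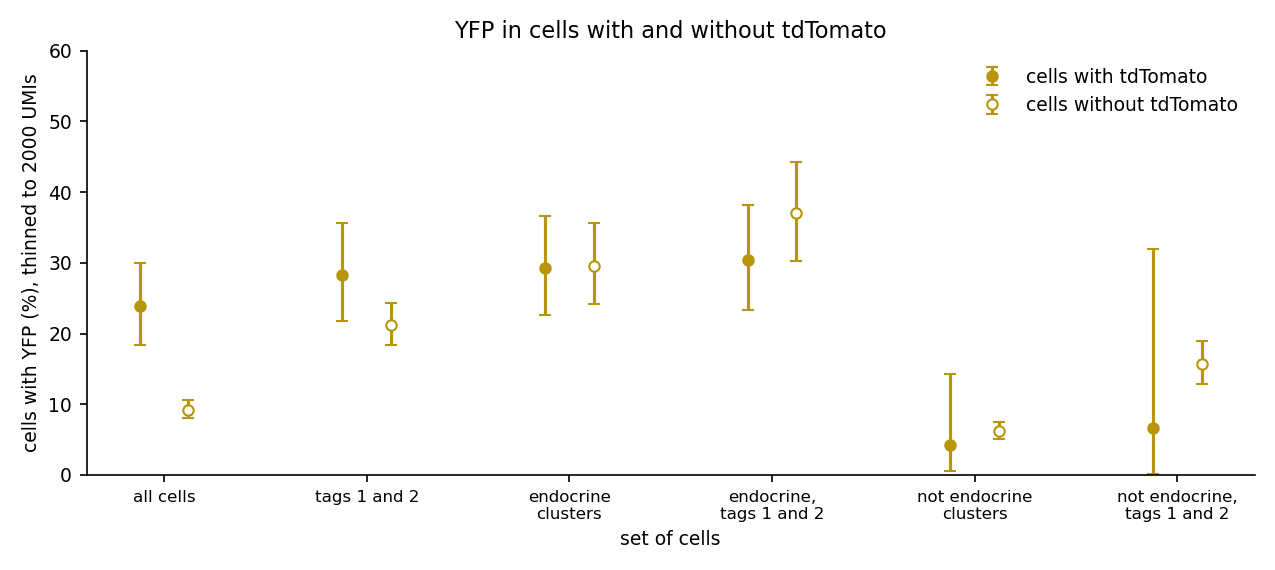
Percentage of cells with YFP, after thinning to 2000 UMIs, among cells with tdTomato (filled) and without it (open) in 6 sets of cells, with exact 95% intervals. Over all cells the shares are 23.9% and 9.25%, and within the endocrine clusters they are 29.3% and 29.6%.

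Correlations over cells, of the natural log of 1 plus UMIs per 10000, describe how the levels moved together. Cells share 1 library and differ in depth. Over 2335 cells r was 0.77 between Chga and tdTomato, 0.47 between Chga and YFP and 0.42 between tdTomato and YFP. Within the 366 cells with at least 20 Chga UMIs the values were 0.42, 0.18 and 0.24. In the 303 of these on hashtags 1 and 2 they were 0.35, 0.06 and 0.19. In the 142 with at least 15000 UMIs they were 0.71, 0.44 and 0.42, and in the 1912 cells with under 5 Chga UMIs they were 0.06, 0.05 and 0.02.

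Among 8056 genes with at least 500 UMIs, those most like Chga over cells were Tph1 (r = 0.92), Chgb (0.92), Tac1 (0.90), Scn3a (0.88), Pcsk1 (0.88), Tpbg (0.88), Gstt1 (0.87) and Rab3c (0.87). Scn3a encodes a voltage-gated sodium channel, Pcsk1 a prohormone convertase and Rab3c a small GTPase of secretory vesicles. For tdTomato the leading genes were Tph1 (0.78), Fxyd6 (0.76), Scn3a (0.74), Tac1 (0.74), Gstt1 (0.73), Chgb (0.73), Pcsk1 (0.73) and Slc18a1 (0.73), a vesicular monoamine transporter. Of these 8 genes, 6 were also among the 8 of Chga, and Chga itself would have ranked 2nd.

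The genes most like YFP were mostly others, and less alike. They were Map1b (0.49), Prnp (0.49), Neurod1 (0.48), Pcsk1 (0.48), Selenop (0.48), Chgb (0.47), Cpe (0.47) and Bex2 (0.47). Map1b encodes a microtubule-associated protein, Prnp the prion protein, Neurod1 an endocrine transcription factor and Cpe a carboxypeptidase of prohormone processing. Of these 8, Pcsk1 and Chgb were also among the 8 of Chga and of tdTomato. Chga would have ranked 11th and tdTomato 47th in this order. Over 16 clusters, r of log2(CPM + 10) with YFP was 0.60 for Chga and 0.82 for tdTomato.

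Gene lists of the endocrine cell were read beside the members. A list gene counts as higher when at least 2-fold above with intervals apart, and it was tested with at least 50 UMIs. In cells with at least 20 Chga UMIs against cells with 0, all 6 granins and granin-like genes were higher (median log2 ratio 3.70, against 0.09 over all genes, of which 8.41% were higher and 1.33% lower). Chgb was at 48033 CPM in cells with at least 20 Chga UMIs and 168 in cells with 0. All 3 measured prohormone processing genes (median 4.25) and all 5 genes of amine synthesis and storage (median 4.42) were higher too, with Pcsk1 at 683 CPM against 6.23 and Ddc, which makes serotonin from its precursor, at 848 against 47.9. Of 15 measured endocrine transcription factors 14 were higher (median 2.65), among them Neurod1 at 480.2 CPM against 4.46.

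Peptide hormones were divided by Chga. Of 5 measured, Cck, Ghrl and Gcg were higher in cells with at least 20 Chga UMIs and Sst was lower, at 3.84 CPM against 29.9 in cells with 0. The hormone cells among those with at least 20 were few, 5 with 20 to 99 Chga UMIs and 13 with at least 100. All of them lay on hashtags 1 and 2, and their part in these levels was not tested. Gip, the incretin of K cells, was at 911 CPM in cells with at least 20 Chga UMIs and 784 in cells with 0, a log2 ratio of 0.21. Between cells of hashtags 1 and 2 and cells of hashtags 3 and 4, all 6 measured peptide hormones were higher (median 4.40), as were all 6 granins (2.44), all 3 processing genes (2.86), all 5 amine genes (2.25) and 12 of 16 transcription factors (1.77), beside 2.02% of all genes higher and 0.562% lower.

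In the hormone cells against the others, 5 of 6 granins (median 2.59), 3 of 3 processing genes (2.93), 3 of 5 amine genes (1.26) and 11 of 16 transcription factors (1.85) were higher, with Isl1 at 580 CPM against 3.29. Over all genes 4.75% were higher and 1.08% lower. In the Neurog3 cells against the others, 3 of 6 granins (0.85), 3 of 3 processing genes (1.17), 2 of 5 amine genes (0.96) and, Neurog3 itself left out, 10 of 15 transcription factors (1.72) were higher, beside 2.28% of all genes higher and 0.534% lower. Insm1, an early endocrine transcription factor, was at 389 CPM in the Neurog3 cells and 31.2 in the others. Cck was at 114 CPM in the Neurog3 cells and 892 in the others.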

How the data were processed

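The authors deposited raw UMI counts for 11248 barcodes, a count table of the 2335 cells they kept, a table of ln (natural log) values and raw hashtag counts. Per the submitters' processing notes, Cell Ranger and Seurat were used. The matrix header names software version 3.1.0, and the notes name a human build (GRCh38) beside mouse gene identifiers. The sources used here give no filter on cells. For the members, 0 entries of the count table differed from the matrix, and the deposited ln values equalled ln(1 + 10000 × UMIs / total).

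UMIs were summed over groups of cells, with 10 CPM added before log2. Cells were clustered on 2000 variable genes, 30 components and 15 neighbours (Leiden, resolution 1; scanpy 1.11.5, leidenalg 0.10.2) without the members. A cluster took a name from at least 3 list markers. The enterochromaffin-like clusters, 376 unnamed cells and other names are rebuilt and may differ from the study's. Scrublet marked 2 cells and so did not work as a caller; no doublet was removed. The rule of 2-fold with intervals apart was run on simulated sums that vary by counting error alone. They hold no variation between cells, animals or sorts, so they do not show how often the rule misleads here. The 8 genes most correlated with each member were named, without mitochondrial genes and unnamed models. Members, groups and gene lists were chosen with earlier results of these data known. Alternatives covered the pseudocount, cell weights, thresholds, hashtag rules, doublet scores, depth and cluster resolution. The fits within hashtags 1 and 2 by Tph1, hormones, Neurog3 and sex-linked UMIs were added after seeing the data.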

Additional observations from a re-analysis of the deposited data

Results flagged for a closer look

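The 8913 barcodes that the authors left out also held the 3 transcripts, with no group of the report using them. Chga was at 672 CPM (664 to 680) over these barcodes, tdTomato at 34.4 CPM (32.6 to 36.2) and YFP at 53.8 CPM (51.6 to 56.1). Of the left-out barcodes, 191 held at least 20 Chga UMIs, at a median of 6358 UMIs per barcode. In these 191 barcodes tdTomato was at 235 CPM (213 to 258) and YFP at 172 (154 to 192), and 66.0% and 57.1% of them had a UMI. Left-out barcodes with 0 Chga UMIs had tdTomato at 12.9 CPM (11.3 to 14.7) and YFP at 42.6 (39.6 to 45.8). The 6598 left-out barcodes of hashtags 1 and 2 had YFP at 73.5 CPM and tdTomato at 42.1, and the 443 of hashtags 3 and 4 had YFP at 6.02 and tdTomato at 16.9. Most left-out barcodes, 7451, lay above the highest mitochondrial share of the kept cells.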

How the results depend on the processing

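No paired analysis was possible because the series has 1 gene expression library and no replicates. Over 131 alternatives, 56 values stayed within their intervals, 66 left them in the same direction and 9 changed sign. tdTomato by Chga UMIs (log2 ratio 3.92) was 4.73 with a pseudocount of 1 CPM, 4.13 with cells weighted equally, 4.34 without the highest doublet scores, 4.10 within hashtags 1 and 2 and 2.84 within hashtags 3 and 4. YFP by Chga UMIs (1.84) was 2.03, 2.09, 2.19, 0.69 and 2.07 under the same settings. YFP by Tph1 (1.81) was 1.98, 1.93 and 2.12 under the first 3. Without the highest doublet scores, YFP was 1.80 by peptide hormones (1.60) and 3.60 by hashtag pair (3.42), which was 4.68 with 1 CPM and 3.07 by more counts. Other values that changed sign were peptide hormone Chga (0.77) at -0.24 with equal weights, Neurog3 YFP (0.32) at -0.056 with 5 UMIs, and Neurog3 Chga (0.18), tdTomato (0.33) and YFP at -0.53, -0.30 and -0.46 without the 5 cells of each side with most UMIs. Within hashtags 1 and 2, a setting chosen after seeing the data, YFP was 0.80 by Tph1, 0.68 by peptide hormones, -0.31 by Neurog3 and -0.27 by sex-linked UMIs (1.10), and Chga was -0.026 by peptide hormones and -0.56 by Neurog3. The difference in YFP share with tdTomato (14.6 points) was 33.2 without thinning, 35.2 at 5000 UMIs, 46.9 with at least 2 UMIs and 7.10 within hashtags 1 and 2. The causes were not tested. Depth limits all shares, since most cells with tdTomato held 1 or 2 UMIs.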
